A study of Drosophila melanogaster with 8 samples.

Results

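Cytochrome P450 enzymes are haem proteins that insert an oxygen atom into their substrates, with electrons passed on by a reductase or a ferredoxin. In insects some of them make and inactivate the moulting hormone ecdysone, and many others oxidise plant toxins, insecticides and other foreign compounds in the gut, fat body and Malpighian tubules. The genes are numbered by family and subfamily, fall into 4 large groups called clans (CYP2, CYP3, CYP4 and mitochondrial), and often lie in tandem clusters of close relatives, as the Cyp6a genes do.

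The members were the rows of the deposited table whose gene symbol begins with Cyp followed by a digit, 86 of 14300 rows. The data held 1 exception to the family name: Cyp1 encodes a cyclophilin, a peptidyl-prolyl isomerase, and not a P450, so it was kept apart and 85 P450 rows remained. P450 genes that carry other symbols, such as phm, sad and dib, are not among them. Levels are given as CPM, read counts scaled to a common library size after adjustment by the trimmed mean of M values (TMM), and are not corrected for gene length unless said. At a mean of 0.5 CPM or more in a genotype, 34 P450 genes were described one by one, and 51 were under that level in both genotypes. The members nearest the limit were Cyp28d2 (0.510 CPM in Myb mutant discs) and Cyp313b1 (0.545 CPM) inside it, and Cyp309a1 (0.453 CPM in control discs) and Cyp6t3 (0.428 CPM in Myb mutant discs) outside it.

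Libraries of poly(A) RNA were made from mesothoracic wing discs, the epithelial sacs from which the adult wing and notum develop, of male larvae in the last instar. The 5 Myb mutant libraries came from larvae with the null allele MH107. The lesion is a deletion left by an excised P-element, and it affects both Myb and alkB, so the mutants lack both genes' function. The mutant larvae were compared with 3 control libraries from the yellow white line yw67, to which the mutant was outcrossed over several generations. By the protocol text each library was a biological replicate. By the sample descriptions all 3 control libraries were technical repeats from 1 biological replicate, mutant library 1 came from another, and mutant libraries 2 to 5 were repeats from a further one. The p-values thus rest on the spread among these libraries, possibly technical, and loss of Myb, loss of alkB and any other difference between the lines or the described replicates cannot be told apart.

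Library totals ran from 50562199 to 65322440 counts. Myb stood at 295 to 305 CPM in control libraries and at 4.56 to 7.24 CPM in Myb mutant libraries, and AlkB had 0 counts in all 5 Myb mutant libraries. All 13 wing disc markers (vg, nub, wg and others) were present, with a summed level of 2224 to 2827 CPM in control and 2651 to 2692 CPM in Myb mutant libraries. Of the 13, 3 were called higher and 0 lower, where 34.4% of all tested genes were called. Markers of other tissues were present as well, each of them with counts in at least 1 library. Summed fat body markers ran from 75.6 to 4648 CPM in control and from 480 to 5287 CPM in mutant libraries, without separating the genotypes. Summed gut markers reached 702 CPM in Myb mutant library 1 and 2.36 to 10.01 CPM in the others, and summed salivary gland markers reached 229 CPM in the same library against 0.649 to 46.6 CPM elsewhere. Summed prothoracic gland markers reached 154 CPM in control library 3 against 25.2 to 30.6 CPM elsewhere. Hemocyte markers did separate the genotypes, at 232 to 316 CPM in control and 46.1 to 60.7 CPM in mutant libraries, with 5 of 7 tested markers called lower. Of 7 tested tracheal markers 2 were called lower, btl (log2 fold change -0.81) and trh (-0.34), and 1 higher, Gasp (0.20). In 16 alternative fits btl and trh were called each time, whereas Gasp was called in 5. Whether these tissues contributed to the P450 differences was not tested. In such bulk samples fewer cells of a type and less RNA per cell cannot be told apart.

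Most P450 genes stood at low RNA levels in the wing disc, and most of the family's RNA came from a handful of genes. The summed level of all P450 rows was 310 to 361 CPM in the 3 control libraries and 434 to 457 CPM in the 5 Myb mutant libraries. The groups did not overlap, and they did not overlap without Cyp6a17 either, at 310 to 361 against 395 to 421 CPM. Of the mean difference of 111 CPM, Cyp6a17 made up 37.3%, Cyp6d2 23.1%, Cyp9c1 21.5% and Cyp6d4 9.61%. The most abundant member in every library was Cyp310a1, which alone held 29.3% to 39.9% of the summed level in control and 24.7% to 30.9% in Myb mutant libraries.

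**Figure D1:**
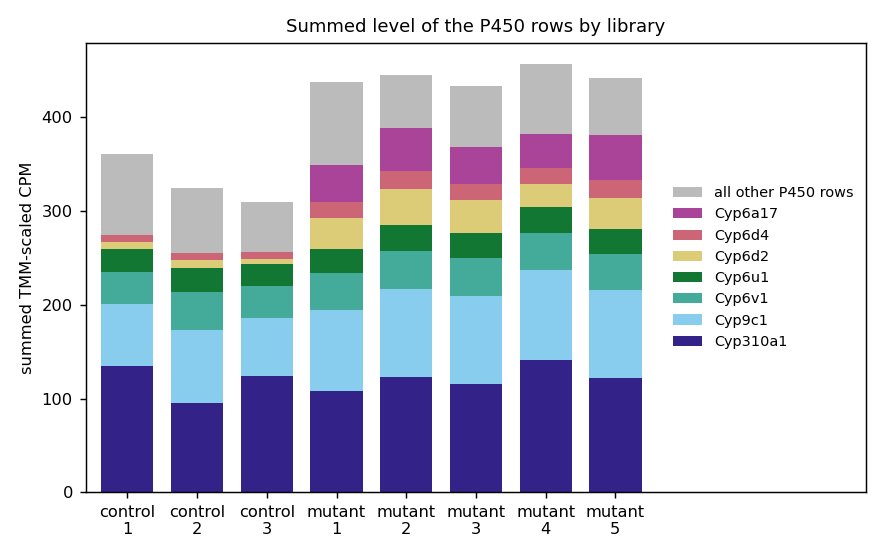
Summed level of the 85 P450 rows (TMM-scaled CPM) in each library, with the 7 largest contributors of the mutant libraries in colour and all other rows in grey. The 3 control bars reach 310 to 361 CPM and the 5 Myb mutant bars 434 to 457 CPM, with visible Cyp6a17 only in the mutant bars and broader Cyp6d2 and Cyp6d4 bands in them.

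Levels of different genes were compared per kilobase of exon. Cyp310a1 ranked first in both genotypes at 71.1 CPM per kb in control and 73.6 CPM per kb in Myb mutant discs, and Cyp9c1 second at 39.4 and 53.2 CPM per kb. The next places differed. In control discs they were held by Cyp6u1 (12.2 CPM per kb) and Cyp6v1 (12.0 CPM per kb), whose levels were close. In Myb mutant discs Cyp6a17 held place 3 with 24.1 CPM per kb, after place 52 in control discs, and Cyp6d2 held place 4 with 18.6 CPM per kb, after place 7.

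Genes were called at a Benjamini-Hochberg adjusted p under 0.05 in edgeR's quasi-likelihood test, fitted over all 9076 tested genes. Of the 48 P450 genes tested, 7 were called higher in Myb mutant discs and 1 was called lower, which is 16.7% of them, whereas 34.4% of all tested genes were called (16.9% higher and 17.5% lower). The 34 described genes held 6 of the higher calls and the lower one. The share of P450 genes called lay below the background share, a description that was not tested. DESeq2 called 12 P450 genes higher and 1 lower. Without control library 2, edgeR called 11 higher, and without Myb mutant library 1 it called 4 lower. The background share of 34.4% belongs to the edgeR fit over all libraries. No share over all genes is given for these alternatives, so their counts cannot be set against a background. Genotypes separated without overlap in 11 of the 48 tested P450 genes (22.9%), against 38.9% of all tested genes. The median log2 fold change was 0.14 over the 48 P450 genes and 0.01 over all tested genes, and the median standard errors (SE) were 0.349 and 0.0764.

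**Figure D2:**
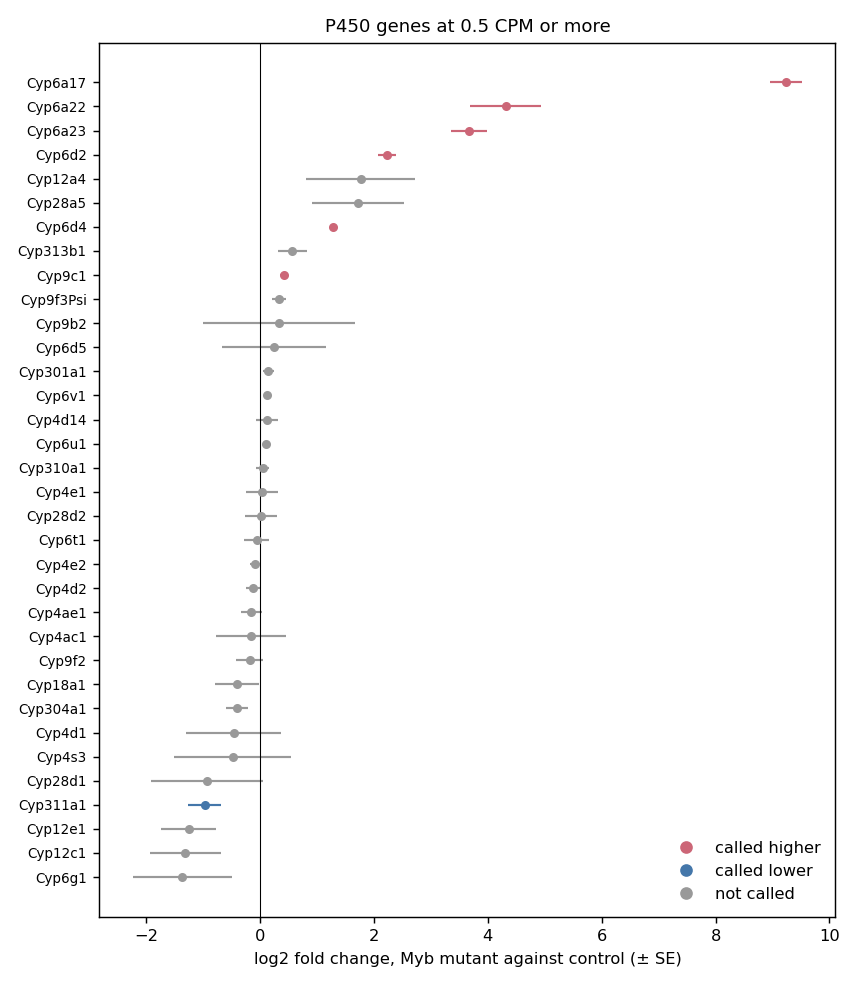
Difference between Myb mutant and control discs as a log2 fold change with its SE, for the 34 P450 genes at 0.5 CPM or more, ordered by the fold change. Cyp6a17, Cyp6a22, Cyp6a23, Cyp6d2, Cyp6d4 and Cyp9c1 were called higher and Cyp311a1 lower, and the grey genes with long bars are those whose libraries of one genotype differed widely.

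Of the 8 calls, 6 lay in the CYP3 clan, the group of the Cyp6, Cyp9 and Cyp28 genes to which many insect detoxification enzymes belong. Of its 26 tested members these 6 (23.1%, against 34.4% of all tested genes) were called higher and 0 lower, with a median log2 fold change of 0.38. The CYP4 clan had 1 higher and 1 lower call among 13 tested members and a median of -0.12. Neither the mitochondrial clan, with 6 tested members and a median of -0.45, nor the CYP2 clan, with 3 and a median of -0.40, had a call in the edgeR fit over all libraries. Whether clans differed from each other was not tested.

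Cyp6a17 gave the largest change of the family. In flies it is known for a role in temperature preference behaviour. Control libraries 1 to 3 held 0.0199, 0.128 and 0.0495 CPM, and Myb mutant libraries 1 to 5 held 39.7, 46.1, 38.7, 36.0 and 47.5 CPM. The gene was thus near silent in all control libraries and among the more abundant P450 genes in all mutant ones. The log2 fold change was 9.24 (SE 0.277, adjusted p = 5.4e-08 by edgeR). It rests on 11 counts in all control libraries against 12175 in the mutant libraries, a ratio of 627 after scaling (95% interval 350 to 1257, exact, covering counting error only). On the BDGP6 assembly, which is not the build used for alignment, it lies on chromosome arm 2R from 14873953 to 14875739 on the plus strand.

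The genes on either side of Cyp6a17 rose with it. Cyp6a22 stood at 0.0794, 0.0366 and 0 CPM in control libraries and at 0.896, 0.564, 0.980, 0.778 and 0.688 CPM in Myb mutant libraries. Its log2 fold change was 4.32 (SE 0.623, adjusted p = 0.000981 by edgeR), from 6 control and 230 mutant counts, a ratio of 21.7 (95% interval 9.83 to 59.8). Cyp6a23 had 0.218, 0.494 and 0.215 CPM in control and 3.49, 4.47, 3.54, 3.58 and 4.66 CPM in Myb mutant libraries. Its log2 fold change was 3.67 (SE 0.319, adjusted p = 5.02e-05 by edgeR). For both genes every mutant library lay above every control library. The 3 genes follow each other within 6.29 kb on the same strand of 2R.

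Counts of these tandem relatives may have been split between copies, since they depended on how unique reads were assigned. Cyp6a23 was at 8.80% to 9.94% of the Cyp6a17 level in the 5 mutant libraries, a narrow range. In control libraries 1 to 3 it was 11.0, 3.86 and 4.33 times the Cyp6a17 level, so there Cyp6a23 had more counts than Cyp6a17, 51 against 11. Cyp6a22 was at 1.22% to 2.53% of Cyp6a17 in the mutant libraries. How much of the Cyp6a22 and Cyp6a23 counts came from Cyp6a17 RNA was not tested.

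The rest of this gene cluster stayed low in both genotypes. Cyp6a19 had 0 counts in all control libraries and 26 in the mutant libraries, with at least 1 count in each of the 5. Against a floor of 3 counts over the control group it was at least 4.91-fold higher in Myb mutant discs. It fell under the filter of the edgeR fit and was called when no filter was set (log2 fold change 5.40, adjusted p = 0.0105 by edgeR) and by DESeq2 (4.76, adjusted p = 0.0057). Cyp6a19 overlaps Cyp6a9 on the opposite strand from 14879356 to 14879752, and without stated use of strand reads from that stretch cannot be told apart. Cyp6a9 had 0.0469 to 0.681 CPM in mutant and 0 to 0.258 CPM in control libraries, and was not called (log2 fold change 1.38, SE 0.961, adjusted p = 0.296 by edgeR). Cyp6a20, a gene known for its link to aggressive behaviour, had 8 control and 66 mutant counts and was called by DESeq2 alone (2.27, adjusted p = 0.0303). Cyp6a21, Cyp6a8 and Cyp317a1 had 10, 2 and 3 counts in control and 33, 17 and 7 in Myb mutant libraries, too few for the filter. The nearest other genes, taken by position, were Pcf11 beside Cyp6a22 (log2 fold change 0.07, adjusted p = 0.534 by edgeR) and Kank at the far end (-0.11, adjusted p = 0.346), each above 100 CPM in every library, and neither was called.

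**Figure D3:**
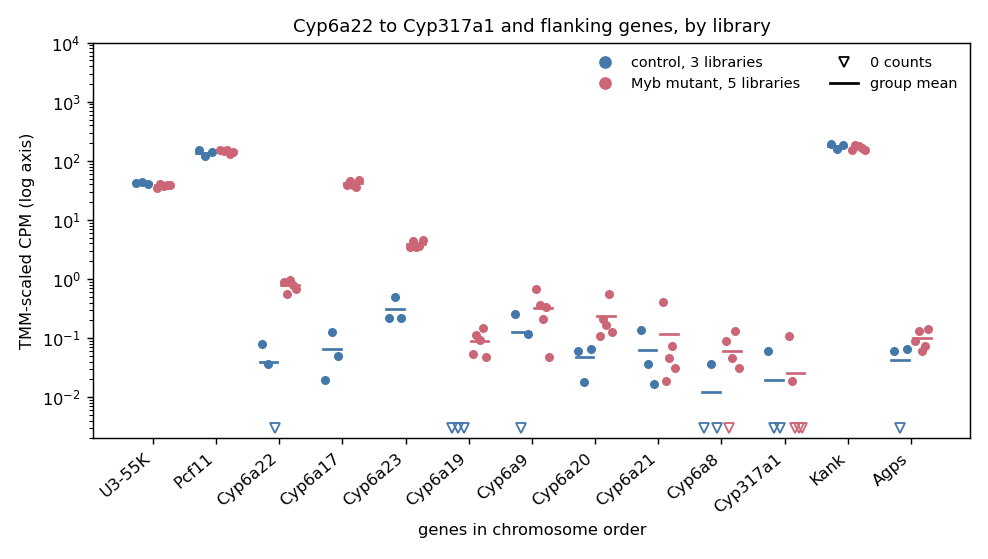
Level of each gene from U3-55K to Agps in chromosome order, as TMM-scaled CPM on a log axis, with 1 point per library, open triangles for 0 counts and lines for group means. Cyp6a22, Cyp6a17 and Cyp6a23 are higher in all 5 Myb mutant libraries than in the 3 control libraries, whereas Pcf11 and Kank overlap between the genotypes.

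Cyp6d2 and Cyp6d4, of another Cyp6 subfamily, rose from levels that were already clear in control discs. They lie on different chromosomes, Cyp6d2 on 2R from 22652573 to 22654530 and Cyp6d4 on 3R from 22698319 to 22700307. Cyp6d2 had 7.09, 7.92 and 5.90 CPM in control and 32.8, 38.4, 34.8, 24.9 and 32.8 CPM in Myb mutant libraries. Its log2 fold change was 2.23 (SE 0.154, adjusted p = 1.28e-05 by edgeR), or 4.70-fold. Cyp6d4 had 7.01, 7.75 and 7.48 CPM in control and 16.8, 19.0, 17.8, 17.4 and 19.6 CPM in mutant libraries. Its log2 fold change was 1.29 (SE 0.068, adjusted p = 2.35e-06 by edgeR), or 2.44-fold, with the libraries of each genotype close together. Control levels of the pair were alike per kilobase, 3.96 CPM per kb for each, and in mutant discs Cyp6d2 reached 18.6 and Cyp6d4 9.68 CPM per kb. The gene nsr overlaps Cyp6d2 on the opposite strand and had means of 0.0281 CPM in control and 0.0165 CPM in mutant discs. The third member of the subfamily, Cyp6d5, did not pass the test. It had 1.01, 0.841 and 0.0165 CPM in control and 0.188 to 1.57 CPM in mutant libraries (log2 fold change 0.25, SE 0.915, adjusted p = 0.855 by edgeR).

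Cyp9c1, the second most abundant P450 gene, rose by a smaller factor that nevertheless added 23.98 CPM to the mean. It stood at 66.0, 77.9 and 62.2 CPM in control and 86.8, 93.8, 93.8, 95.7 and 93.4 CPM in Myb mutant libraries, and the groups did not overlap. The log2 fold change was 0.43 (SE 0.0711, adjusted p = 0.002 by edgeR), or 1.35-fold. With the libraries summed by described biological replicate it was 0.39 and missed the threshold (adjusted p = 0.0523). Its Cyp9 relatives were far lower. Cyp9f3Psi, a row named as a pseudogene and now annotated as the protein-coding gene Cyp9f3, had 2.64 to 3.47 CPM in control and 3.51 to 3.94 CPM in mutant libraries. The groups did not overlap, and the log2 fold change of 0.33 missed the threshold (SE 0.127, adjusted p = 0.0725 by edgeR), though it passed without control library 1 (0.47, adjusted p = 0.017). Cyp9f2 had 4.09 to 4.69 CPM in control libraries and 3.04 to 3.32 CPM in mutant libraries 2 to 5, against 6.04 CPM in mutant library 1. It was not called over all libraries (log2 fold change -0.18, adjusted p = 0.572 by edgeR), but was called lower without mutant library 1 (-0.41, adjusted p = 0.0236).

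Of the 51 members under 0.5 CPM, 14 were tested and only Cyp4e3 was called in that fit. It had 0, 0 and 0.0165 CPM in control and 0.609, 0.132, 0.413, 0.185 and 0.110 CPM in Myb mutant libraries. The log2 fold change was 5.16 (SE 1.09, adjusted p = 0.00714 by edgeR), and the 1 control count against 85 mutant counts gave a ratio of 48.2 with a counting interval of 8.42 to 1925. Mutant libraries differed by 5.56-fold among themselves, and the gene dropped under the filter when mutant library 1, 3 or 4 was left out. With summed libraries it was not called (adjusted p = 0.0722). Its relatives Cyp4e2 and Cyp4e1, which lie on another chromosome arm, were not called, with log2 fold changes of -0.08 (SE 0.102) and 0.04 (SE 0.28).

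Cyp311a1 was the only P450 gene called lower over all libraries. It stood at 0.615, 0.549 and 0.628 CPM in control and 0.161, 0.282, 0.306, 0.408 and 0.360 CPM in Myb mutant libraries, and all mutant libraries lay below all control libraries. The log2 fold change was -0.97 (SE 0.295, adjusted p = 0.0331 by edgeR), from 99 control and 89 mutant counts. The call rested on most of the libraries: without mutant library 2 or 3, or without any 1 of the control libraries, the adjusted p lay between 0.0532 and 0.0855, and with summed libraries it was 0.25. Cyp318a1, the neighbouring P450 gene on the X chromosome, had 1 control and 10 mutant counts and was not tested.

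**Figure D4:**
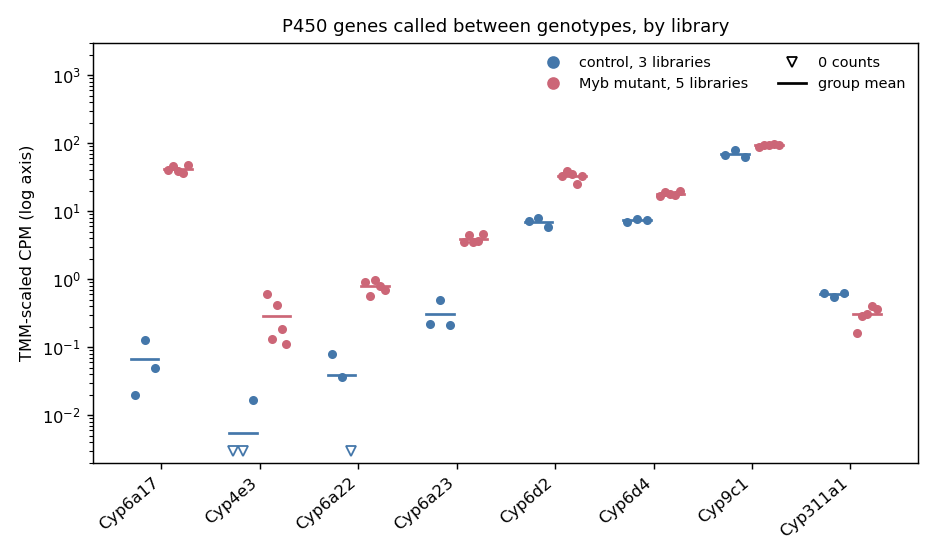
TMM-scaled CPM on a log axis of the 8 P450 genes called between genotypes, with 1 point per library, open triangles for 0 counts and lines for group means. In all 8 the libraries of the genotypes do not overlap, and Cyp6a17, Cyp4e3 and Cyp6a22 are near 0 in control discs.

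The other abundant P450 genes of control discs were not called over all libraries. Cyp310a1 had 135, 95.2 and 124 CPM in control and 108 to 141 CPM in mutant libraries (log2 fold change 0.05, SE 0.118, adjusted p = 0.767 by edgeR). Cyp6v1 had 34.2 to 40.1 CPM in control and 38.5 to 40.9 CPM in mutant libraries, and Cyp6u1 had 23.2 to 26.3 and 25.4 to 27.4 CPM. Their log2 fold changes were 0.13 (SE 0.0587, adjusted p = 0.125) and 0.11 (SE 0.0523, adjusted p = 0.132). Control library 2 held the highest control value of both, and without it both were called by edgeR, with log2 fold changes of 0.20 (adjusted p = 0.00803) and 0.15 (adjusted p = 0.0413). Cyp301a1, a mitochondrial-clan gene known for a part in adult cuticle formation, had 8.08 to 8.56 CPM in control and 8.15 to 10.9 CPM in mutant libraries (log2 fold change 0.15, SE 0.097). Cyp4e2 had 10.3 to 13.4 and 9.999 to 12.1 CPM, Cyp4d2 4.39 to 6.33 and 4.79 to 5.47 CPM, Cyp4ae1 3.55 to 6.57 and 4.58 to 5.41 CPM, and Cyp4d14 1.41 to 1.78 and 1.32 to 2.097 CPM, each with overlapping genotypes. Cyp4ae1 was called lower only without control library 2 (-0.39, adjusted p = 0.0128 by edgeR), the library with its lowest control value. The remaining low and even members, Cyp4e1, Cyp6t1, Cyp28d2 and Cyp313b1, had means of 0.366 to 1.35 CPM in control and 0.510 to 1.39 CPM in mutant discs, and none of them was called.

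P450 genes of ecdysone metabolism were low in most libraries, and phm and sad were far higher in control library 3 than elsewhere. Cyp18a1, which inactivates ecdysteroids, had 2.92, 4.72 and 1.52 CPM in control and 1.13 to 2.91 CPM in mutant libraries (log2 fold change -0.40, SE 0.383, adjusted p = 0.446 by edgeR). Cyp304a1, of the same clan, had 1.15 to 1.25 CPM in control and 0.751 to 1.17 CPM in mutant libraries (-0.41, SE 0.194, adjusted p = 0.133). Cyp6t3, reported in flies to act in ecdysone production, stayed under 0.5 CPM on average. Of the 9 ecdysone synthesis genes with other symbols, 6 were tested and 3 were called lower: phm, sad and CG12068 (now sro). Of all tested genes 17.5% were called lower. The call of sad was lost without any 1 of the mutant libraries (adjusted p of 0.0752 to 0.0947 by edgeR). The genes phm and sad, which encode P450 enzymes, stood apart in 1 library. The gene phm had 3.73 and 3.71 CPM in the first control libraries, 51.9 CPM in control library 3 and 1.71 to 2.097 CPM in mutant libraries, and sad had 1.27, 2.12 and 32.5 CPM and 1.79 to 2.38 CPM. Control library 3 also held 33.5 CPM of CG41624 (now spok), which had 0 counts in the other control libraries. Without that library the log2 fold change of phm went from -3.37 to -0.96 (adjusted p = 0.0013 by edgeR), that of sad from -2.62 to 0.20 (adjusted p = 0.527), and CG12068 went from -0.61 to -0.45 and was not called (adjusted p = 0.0553). The P450 gene shd, which makes the active hormone from ecdysone, had means of 0.692 CPM in control and 1.24 CPM in mutant discs (0.85, SE 0.292, adjusted p = 0.0529). The P450 gene dib had 6.65, 6.13 and 9.50 CPM in control and 5.00 to 6.67 CPM in mutant libraries (-0.32, SE 0.156, adjusted p = 0.144 by edgeR).

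A further group of P450 genes varied widely between libraries of one genotype. In 13 of the 34 described genes (38.2%) the highest library exceeded the lowest of the same genotype by more than 5-fold, against 6.08% of all tested genes. Expression level bears on such ranges. Among tested genes with a mean under 10 CPM the share was 19.9% of all genes and 55.0% of P450 genes (22 of 40). Levels under that limit were not matched between P450 genes and all genes. Of the 13, Cyp6a17 and Cyp6a22 were called and had their wide range in near-silent control libraries. The other 11 were not called over all libraries: Cyp6g1, Cyp12c1, Cyp12e1, Cyp28d1, Cyp4s3, Cyp4d1, Cyp4ac1, Cyp6d5, Cyp9b2, Cyp28a5 and Cyp12a4.

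Cyp6g1, known from insecticide resistance, had 8.64, 3.71 and 0.429 CPM over the control libraries, a 20.1-fold range, and 1.40, 0.583, 1.12, 4.43 and 0.782 CPM in Myb mutant libraries 1 to 5. Its log2 fold change was -1.36 (SE 0.871, adjusted p = 0.258 by edgeR). When libraries were summed by described replicate it was called (-1.40, adjusted p = 0.0429), in a fit with a single control sample. Cyp6g2 overlaps it on the opposite strand and had under 0.5 CPM in every library. Cyp28d1 had 4.43, 2.09 and 0.0826 CPM in control and 2.72, 0.3195, 0.919, 1.37 and 0.407 CPM in mutant libraries. Cyp9b2 had 3.16, 2.07 and 0 CPM in control and 7.79, 0.263, 0.811, 1.52 and 0.563 CPM in mutant libraries. Cyp4d1 had 7.37, 3.27 and 0.413 CPM in control and 2.88, 0.714, 2.495, 5.97 and 1.31 CPM in mutant libraries. In each of these genes control library 3 was the lowest control library and mutant library 2 the lowest mutant one.

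The summed fat body markers were lowest in the same libraries. Their level was 4648, 1870 and 75.6 CPM over control libraries 1 to 3, and over mutant libraries 1 to 5 it was 5287, 480, 1862, 3497 and 775 CPM. Of the 11 wide-range P450 genes that were not called, 11 were lowest in mutant library 2, as the marker sum was, and 8 also had its order of control libraries. Both held for 72.7% of them and for 26.5% of the 34 described P450 genes. They held for 28.8% of the 552 wide-range genes among all tested and for 2.95% of all tested genes. The lowest mutant value lay in library 2 for 49.6% of the 552. The 552 include called genes, whereas the 11 were taken as not called, so these shares are not like for like. The summed gut markers had the same order of control libraries as the fat body sum, at 10.01, 5.40 and 2.59 CPM. They were lowest in mutant library 5, however. In mutant library 1, where the fat body, gut and salivary gland sums were all highest, 7 of the 11 had their highest mutant value. So did 54.2% of the 552 wide-range genes among all tested. Among the 7 were Cyp9b2, Cyp28d1, Cyp28a5 and Cyp12a4, the last known from insecticide resistance. Cyp28a5 had 3.06 CPM there against 0.376 to 0.593 CPM in the other mutant libraries, and Cyp12a4 1.97 against 0.150 to 0.408 CPM. Cyp12c1 and Cyp12e1 were called lower when that library was left out, with log2 fold changes of -1.91 (adjusted p = 0.0245 by edgeR) and -1.69 (adjusted p = 0.0141). What part RNA of fat body or gut had in these levels was not tested.

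**Figure D5:**
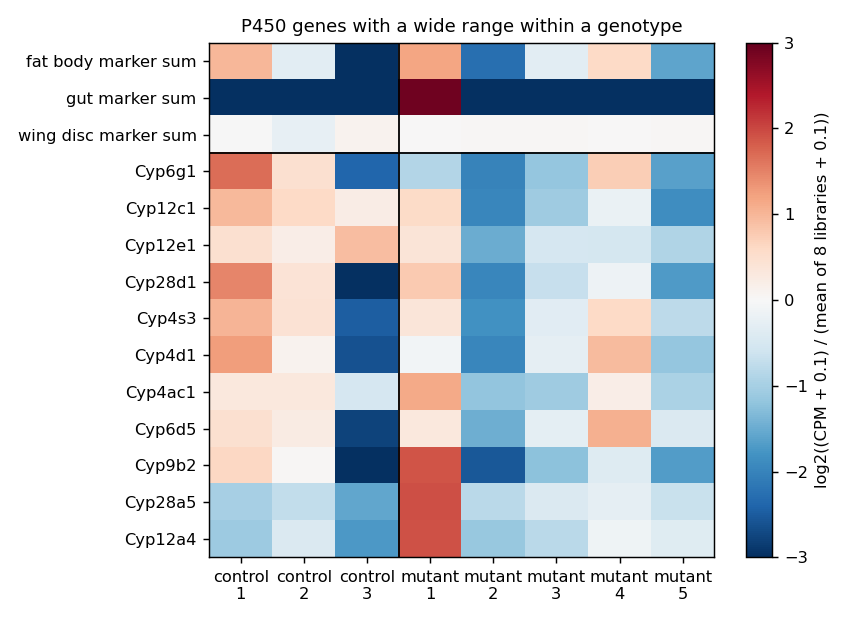
Heat map of log2((CPM + 0.1) / (mean of the 8 libraries + 0.1)) by library for 3 marker sums and the 11 P450 genes with a wide range within a genotype that were not called. Control library 3 and mutant library 2 are pale or blue in most P450 rows and in the fat body row, the gut row is high only in mutant library 1, and the wing disc row is even.

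The silent members included genes that mark other tissues. In 30 of the 85 P450 rows both means were under 0.1 CPM, and 3 (Cyp308a1, Cyp313a1 and Cyp316a1) had 0 counts in all 8 libraries, which allows up to 3 counts over each group. Cyp4g1, the enzyme that makes cuticular hydrocarbons in oenocytes, had 13 control and 21 mutant counts, and Cyp4g15 had 10 and 22. Cyp12d1-d and Cyp12d1-p, near-identical copies whose counts may have been split, had means of at most 0.301 CPM. In 6 rows control libraries had 0 counts and mutant libraries had some, and in 3 rows, Cyp313a2, Cyp313a3 and Cyp313a5, the reverse held with 6, 7 and 5 control counts. With 5 mutant libraries against 3 control libraries, these numbers of rows are not like for like. The share of such rows over all genes is not given. Cyp6a18 had 0 control and 39 mutant counts and Cyp6w1 0 and 20, at least 7.37-fold and 3.78-fold higher against a floor of 3 counts over the control group. Mutant library 1 held 25 of the 39 and 12 of the 20 counts, 2 and 1 of the mutant libraries had 0 counts, and without library 1 the bounds were 3.27-fold and 1.87-fold. Cyp6a2 and Cyp6a13 had non-overlapping groups at means of 0.0945 and 0.0745 CPM in control and 0.285 and 0.262 CPM in mutant discs. DESeq2 called both higher (log2 fold changes 1.62 and 1.78), and so it did Cyp4d8 (2.94), whereas edgeR gave them adjusted p of 0.0562, 0.0839 and 0.0655.

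Among electron donors, haem synthesis genes and regulators together, 6 of 24 tested genes were called (25%), against the background of 34.4%. Of 6 electron donors, Cyt-b5 was called lower (101 ± 5.84 CPM in control, SD, n = 3, and 85.1 ± 1.72 CPM in mutant discs, n = 5, log2 fold change -0.25, adjusted p = 0.00187 by edgeR) and 0 were called higher. Cpr, the reductase that passes electrons to the microsomal P450 enzymes, had 138 ± 1.40 and 127 ± 5.11 CPM (-0.12, adjusted p = 0.0526). Of 7 haem synthesis genes Pbgs, the porphobilinogen synthase gene, rose from 47.4 ± 0.791 to 89.9 ± 2.34 CPM (0.92, adjusted p = 2.23e-07), and CG1885 was called lower (-0.25, adjusted p = 0.0249). Among 11 tested regulators of detoxification genes, the ecdysone receptor gene EcR (0.54, adjusted p = 0.0179) and the juvenile hormone receptor gene Met (0.33, adjusted p = 0.0475) were called higher and ss, the homologue of the aryl hydrocarbon receptor gene, lower (-0.17, adjusted p = 0.025). The calls of Met and ss were not firm. Met was called in 6 of 16 alternatives and missed the threshold without any 1 of the mutant libraries (adjusted p of 0.0582 to 0.0971 by edgeR) and without control library 2 or 3 (0.0571 and 0.0566). For ss the call was lost without mutant library 3 or 5 (0.0557 and 0.0552) or control library 3 (0.0923). For CG1885 it was lost without mutant library 3 (0.0589), control library 1 (0.0876) or control library 3 (0.0615).

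Among the other detoxification families and juvenile hormone genes together, 8 of 20 tested genes were called (40%), near the background of 34.4%. Of 8 tested glutathione transferases GstD5 rose from 0.0242 ± 0.0213 to 0.403 ± 0.120 CPM (log2 fold change 3.94, adjusted p = 0.00139 by edgeR) and GstD9 by 0.21 (adjusted p = 0.0133), a call lost without control library 1 (0.0534). Of 8 tested UDP-glucuronosyltransferases, which attach sugars to foreign compounds, Ugt86Di rose from 7.08 ± 0.497 to 59.2 ± 8.55 CPM (3.06, adjusted p = 6.71e-07) and Ugt86Da from 49.4 ± 2.71 to 80.0 ± 4.51 CPM (0.69, adjusted p = 3.55e-05). Ugt36Bc was called lower, from 1.58 ± 0.240 to 0.0649 ± 0.0370 CPM (-4.56, adjusted p = 4.59e-05). Of 4 tested juvenile hormone genes 3 rose: the epoxide hydrolase genes Jheh1 (0.64, adjusted p = 0.00392) and Jheh2 (0.38, adjusted p = 0.00327), and the hormone response gene Kr-h1 (0.24, adjusted p = 0.00413). The median log2 fold changes of these 3 families were 0.25, 0.09 and 0.36, against 0.01 over all tested genes.

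Cyp1, the cyclophilin gene that shares the symbol, was far more abundant than any P450 gene. It had 2018 to 2383 CPM in control and 1798 to 1911 CPM in mutant libraries, without overlap, and was called lower (log2 fold change -0.21, SE 0.0611, adjusted p = 0.0269 by edgeR). Left-out mutant libraries 1, 2, 3 or 5 each moved the adjusted p above 0.05, to between 0.0526 and 0.0746.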

How the data were processed

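The authors trimmed reads with Trimmomatic (version 0.22 in the submitters' processing notes), ran Bowtie2 version 2.1.0 against the exons of FlyBase genes of 2008 (release 5), and added up eXpress unique counts over the exons of a gene. The deposited counts were raw. Strand use was not given in the sources used here. On the BDGP6 annotation Cyp9c1, Cyp6v1, Cyp301a1 and others also overlap a gene on the opposite strand. Cyp6u1 overlaps Ufsp1 and Cyp6a22 a transposable element, each on the same strand. How many reads were shared was not tested. The deposited log2 fold change and p-value columns of the authors' own comparison were not used. A row pooling mitochondrial reads (0.574% to 1.34% of counts) was left out.

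The test was that of edgeR version 4.0.16, run under R version 4.3.3 (filterByExpr, TMM, quasi-likelihood test with genotype as the only term, all 8 libraries), and with DESeq2 version 1.42.0 as an alternative. Each SE was derived from the fold change and the F statistic (absolute value over the root of F). The procedure was tested on simulated data. Positions and neighbours are from the BDGP6 annotation of Ensembl release 115, matched by identifier for 12121 rows.

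The members and gene lists were chosen with earlier results of these data known. Called members were named, and given in every library for the 6 largest changes in each direction. Described members that were not called were given by range. Called genes of the other lists were named, except those of the wing disc, hemocyte and gut marker lists. Cyp6a18, Cyp6w1, Cyp6a2, Cyp6a13, Cyp4d8, the Cyp313a and Cyp4g genes, and the library values of the wide-range genes were chosen after their values were seen.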

Additional observations from a re-analysis of the deposited data

Results flagged for a closer look

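Levels of the 35 described members (the 34 P450 genes and Cyp1) were examined for a single Myb mutant library far from the other 4, and 7 were found. The control group of 3 libraries is too small for that test. Among like libraries chance alone would give such a library in about 1 of 20 groups. By the sample descriptions mutant library 1 came from another biological replicate than libraries 2 to 5, so that rate may not apply. Myb mutant library 1 was far above the next library in Cyp9b2 (7.79 against 1.52 CPM), Cyp28a5 (3.06 against 0.593 CPM), Cyp12a4 (1.97 against 0.408 CPM) and Cyp9f2 (6.04 against 3.32 CPM). The same library was lowest in Cyp9c1 (86.8 against 93.4 CPM), where it still lay above the highest control library at 77.9 CPM. Mutant library 4 stood apart in Cyp6g1 (4.43 against 1.40 CPM). Mutant library 3 stood apart in Cyp4d2 by a small absolute step (5.47 against 4.98 CPM).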

How the results depend on the processing

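Cyp6a17, Cyp6a22, Cyp6a23, Cyp6d2 and Cyp6d4 were called higher under every alternative in which they were tested, with log2 fold changes of 8.86 to 10.08, 3.72 to 5.31, 3.46 to 4.17, 2.13 to 2.35 and 1.23 to 1.32. Cyp6a22 was not tested with a minimum mean of 1 CPM. The number of P450 genes called higher, 7 in the edgeR fit, was 12 with DESeq2 and 6 to 11 when libraries were left out in turn. The number called lower, 1 in that fit, was 0 with a minimum mean of 1 CPM and 0 to 4 when libraries were left out. Shares over all genes are not given for these alternatives. With the library number as a replicate block 7 were called higher and 0 lower, since Cyp311a1 missed the threshold (adjusted p = 0.0873 by edgeR). Deviations of same-numbered libraries from their genotype means correlated at 0.32, -0.11 and 0.008 for library numbers 1 to 3. These values cannot decide whether library numbers pair the samples. The log2 fold change of sad ran from -3.15 to 0.20 when libraries were left out, the latter without control library 3. The number of described P450 genes, 34, was 24 at a minimum of 1 CPM and 32 to 35 when libraries were left out. With libraries summed by described replicate, 5 were called higher and 1 lower, in a fit that assumes the single control sample to vary like the mutant sums. Alternatives for genes outside the family were added after seeing the data. With the replicate block 15 of 29 of those genes, EcR, Met, ss, CG1885, GstD9 and Kr-h1 among them, missed the threshold. Depth limits members under 0.5 CPM, where 1 count is a large share of the level.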
